A study of Homo sapiens with 6 samples.

Results

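Cytosolic ribosomal protein genes were followed over 6 Affymetrix Human Genome U133 Plus 2.0 arrays of VCaP cells, an established line from prostate cancer with the TMPRSS2/ERG gene fusion. The members were the probe sets whose only gene symbol in the array's annotation is RPLP1, RPLP2 or RPL or RPS with a number, with or without A, X, L or L1 behind it. Kinases of ribosomal protein S6, RPS4Y and pseudogenes were left out. The rule found 120 of 54675 probe sets, for 59 of 19775 genes with a probe set of their own, 38 of them named RPL and 21 named RPS. Another 15 genes that the same names cover had only probe sets listed with further symbols and were not analysed here. Cells were given 1 of 2 independent siRNAs against SOX9, called SOX9i-A and SOX9i-B in the labels and siRNA A and siRNA B here, or a non-target control siRNA, NTC. RNA was taken 72 h after transfection. Each of the 3 groups had 2 arrays, which the design text describes as biological duplicates. All groups are the same fusion-positive line, transiently transfected, so even the control cells were exposed to an siRNA. The series is about SOX9, a transcription factor, and the WNT pathway in prostate cancer, and its design compares SOX9 knockdown with control.

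The cytosolic ribosome is built from ribosomal RNA and a set of ribosomal proteins, with the RPL proteins in the large subunit and the RPS proteins in the small one. Their mRNAs begin with a C followed by a run of pyrimidines, the 5′ terminal oligopyrimidine or TOP motif, through which the mTOR pathway and the protein LARP1 control their translation together. Ribosome production is a target of MYC in many tumours, and ribosomal proteins left unassembled, RPL5 and RPL11 above all, bind MDM2 and so stabilise p53. A few members have a paralog, named with L or L1, that can take the place of the standard protein in some tissues.

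The start sites show what most members share in sequence. They were read from the RefSeq promoter table of GRCh38.p14, which held 51 of the 59 genes. Each line below gives 30 bases on the transcript's strand, 15 before and 15 from the annotated start onward, for the 6 members with the lowest and the 6 with the highest log2 fold change for both siRNAs, in that order. Capitals mark the run of C and T at the start where it begins with C and at least 4 pyrimidines follow.
RPL22L1: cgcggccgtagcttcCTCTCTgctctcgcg
RPL14: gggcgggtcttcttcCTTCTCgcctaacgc
RPL10L: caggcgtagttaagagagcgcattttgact
RPL36: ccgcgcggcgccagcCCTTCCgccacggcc
RPL35A: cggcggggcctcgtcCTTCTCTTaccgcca
RPS28: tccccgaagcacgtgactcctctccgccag
RPS18: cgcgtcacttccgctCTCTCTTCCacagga
RPS10: ccgcgcatgctccttCCTTTCCagccccgg
RPS4X: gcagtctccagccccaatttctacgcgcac
RPL41: cggaacttcgcctttCTCTCggccttagcg
RPL26L1: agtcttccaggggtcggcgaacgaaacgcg
RPS27L: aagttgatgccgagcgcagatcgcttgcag

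The stretches lie as follows. The lowest members are RPL22L1 at chr3:170870181-170870210 (minus strand), RPL14 at chr3:40457324-40457353 (plus strand), RPL10L at chr14:46651767-46651796 (minus strand), RPL36 at chr19:5690280-5690309 (plus strand), RPL35A at chr3:197950175-197950204 (plus strand) and RPS28 at chr19:8321481-8321510 (plus strand). The highest are RPS18 at chr6:33272060-33272089 (plus strand), RPS10 at chr6:34426055-34426084 (minus strand), RPS4X at chrX:72277234-72277263 (minus strand), RPL41 at chr12:56116618-56116647 (plus strand), RPL26L1 at chr5:172958714-172958743 (plus strand) and RPS27L at chr15:63157463-63157492 (minus strand). Each spans the annotated transcript start, so its last 15 bases are the beginning of the 5′ UTR.

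A C at the annotated start with at least 4 pyrimidines behind it, searched on the transcript's strand at that position alone, stood at 33 of 46 members with a standard name, or 71.7%. It stood at 4.04% of all 27305 promoters in the table and at 5.10% of those of genes tested here. Of the 5 paralogs in the table only RPL22L1 had it. RPL26L1, RPS27L, RPL7L1 and RPL10L did not. RPS28 and RPS4X lack it at the annotated base, which says only that these letters are not there. The longest run of C and T in the 30 bases was a median of 11 bases in the members and 4 over all promoters. The 33 tested members with this start had a median log2 fold change of -0.13 for both siRNAs, and the 17 without it -0.14, a small difference that was not tested.

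The deposited values are MAS5 signals on a linear scale. They were used as log2(signal + 16), and where a gene had several probe sets the one with the largest mean stood for it. Genes whose mean lay below the median of all probe sets, a signal of 22.0, were left out. Of the 59 members 56 passed this filter. RPL36A, and the paralogs RPL39L and RPL3L, whose best probe sets had mean signals of 20.4, 3.30 and 2.80, did not. RPL39L is known from testis and RPL3L from muscle. The probe sets of most members lay at the top of the array's range. For 49 members the mean signal ran from 6806 to 15528, with the control level of each at or above percentile 99.1 of the 12431 tested genes. 48 of the 100 brightest genes in control were members. Signals of different probe sets depend on the probes as well as on the RNA, so this order is one of signal and not of mRNA abundance.

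The brightest probe set of all members was that of RPS19, a small subunit protein mutated in Diamond-Blackfan anaemia, with signals of 15573 and 17182 in the control arrays, 15449 and 14968 with siRNA A and 14872 and 15124 with siRNA B. As deposited, all 4 SOX9 siRNA arrays lay below both controls, and the log2 fold change for both siRNAs was -0.12 (SE 0.11, limma adjusted p = 0.882). RPL7, RPS6, RPS10, RPL37A and RPS16 followed, with log2 fold changes of -0.057, -0.10, -0.017, -0.044 and -0.054. RPS6, the protein phosphorylated by S6 kinases below mTOR, had signals of 15182 and 15496 in the control arrays, 14821 and 14350.3 with siRNA A and 14280.5 and 13949.9 with siRNA B, again with every SOX9 siRNA array below both controls. The dimmest tested members were RPLP2 (49.8 on average), RPL10L (107), RPL27A (143) and RPL26L1 (547). RPLP2 and RPL27A make standard ribosomal proteins, and other probe sets of both are listed with a small nucleolar RNA too and were no members. Their values here therefore rest on dim probe sets.

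Some facts of the whole series bear on these values. SOX9 itself had signals of 1469 and 1126 in the control arrays, 1108 and 673 with siRNA A and 609 and 334 with siRNA B, a log2 fold change of -1.02 for both siRNAs short of the threshold at an adjusted p of 0.425 in limma and past it, at 0.00184, once replicate number entered as a block. The 2%-trimmed mean signal of an array ran from 144 in replicate 1 of siRNA B to 190.0 in its replicate 2, so the arrays as deposited are not on 1 scale, and directions below are given under other scalings too. The GAPDH 3′/5′ signal ratio was 1.05 and 1.04 in control and 1.10 to 1.19 with the SOX9 siRNAs. The ACTB 3′/5′ ratio was higher, at 3.07 and 3.15 in control, 3.53 and 3.79 with siRNA A and 3.34 and 2.91 with siRNA B. The part of these ratios in the results was not tested. All 9 prostate luminal markers with a probe set of their own were above the filter, KLK3 and ERG among them, with a summed signal of 30002 to 35690.1. Of the basal, endothelial and leukocyte markers only KRT14, PECAM1 and CD79A passed the filter, and the summed signal of each list stayed at or below 114 on every array. The 6 fibroblast markers summed to 318 and 529.5 in control, 386 and 717 with siRNA A and 967 and 2275 with siRNA B, and 2 of them, LUM and COL1A1, passed the filter. Their part in the results was not tested.

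With both SOX9 siRNAs against control, the members lay slightly below control as a group and none passed the test by itself. On the signals as deposited, 54 of the 56 tested members had a negative log2 fold change, where 55.2% of all tested genes had one. Most members are bright, and of all 653 probe sets with a mean signal of at least 4000, 70.9% had one, with a median of -0.083. The member median was -0.13 against -0.037 over all genes. The gap between these medians was -0.093, but -0.0078 without replicate 2 of siRNA B and -0.18 without its replicate 1. The size and the count depended on the scaling: the median was -0.032 with 35 negative after quantile normalization, -0.089 with 50 after median centring and -0.11 with 51 at a common trimmed mean, where the shares of negative values over all genes were 51.1%, 49.4% and 52.7%. Limma called 0 of the 56 at an adjusted p below 0.05, against 0.0402% of all genes, and the smallest adjusted p was 0.417. At an unadjusted p below 0.05 there were 6 members, all lower, where 5.61% of all genes were. With the replicate number as a block 1 member, RPL22L1, was called, with 3.54% of all genes.

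On the deposited scale, 28 of the 56 members had all 4 SOX9 siRNA arrays below both control arrays, where 11.8% of all genes did. None had all 4 above, where 4.56% of all genes did. The count of 28 was 9 after quantile normalization, 7 after median centring and 4 at a common trimmed mean, where 9.91%, 9.05% and 10.1% of all genes did. After rescaling, then, the shares of members were 16.1%, 12.5% and 7.14%, the last below that of all genes. Wherever a single gene is said to lie below control on all SOX9 siRNA arrays, the deposited signals are meant. Which genes kept this after rescaling is not given here.

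**Figure D1:**
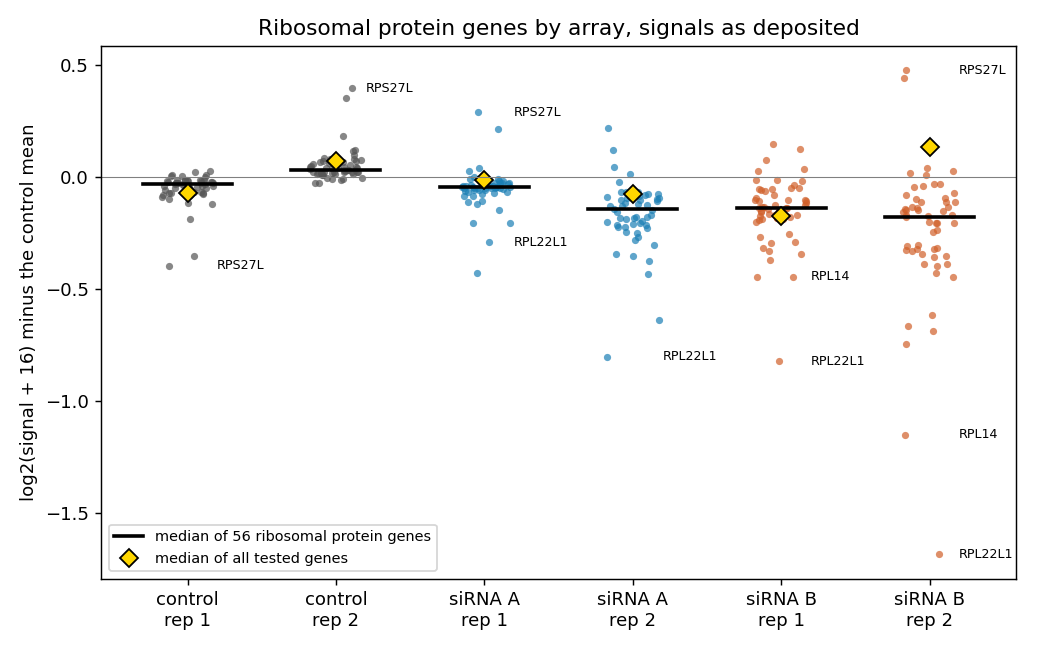
Log2(signal + 16) of the 56 tested ribosomal protein genes on each of the 6 arrays, minus the gene's mean over both control arrays; a point is a gene, the bar the median of the members and the diamond the median of all 12431 tested genes. The member medians run from -0.18 to 0.032, and in replicate 2 of siRNA B the members lie below control while the median of all genes, 0.13, lies above it.

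The members differed between single arrays too. Set against the mean of both controls, their median stood at -0.032 and 0.032 in control, -0.044 and -0.14 with siRNA A and -0.14 and -0.18 with siRNA B. On the deposited scale all 4 SOX9 siRNA arrays were below the lower control array, siRNA A replicate 1 by the least. At a common trimmed mean the member medians were 0.047 and -0.047 in control, -0.034 and -0.090 with siRNA A and 0.076 and -0.37 with siRNA B. There siRNA B replicate 1 lay above both controls. Under each of the other scalings siRNA A replicate 1 lay between the controls. As deposited, the median of all tested genes was -0.070 and 0.070 in control, -0.011 and -0.076 with siRNA A and -0.17 and 0.13 with siRNA B. The members were thus above the median gene in replicate 1 of siRNA B and below it by the most in replicate 2. Their share of the summed signal of all tested genes was 7.49% and 7.11% in control, 7.13% and 6.87% with siRNA A and 7.56% and 5.62% with siRNA B. A common factor on all signals of an array leaves this share unchanged, but other differences between arrays do not. Replicate 2 of siRNA B was the lowest of the 6 and replicate 1 of siRNA B the highest, so the siRNA B group spans the controls on this measure. The same arrays had the highest and the lowest trimmed mean signal, 190.0 and 144, and the part of array brightness in the share was not tested.

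The large subunit and the small subunit had similar values. Of the 31 tested large subunit members with a standard name, 31 had a negative log2 fold change for both siRNAs, with a median of -0.14 and a range from -0.46 to -0.024. Of the 20 small subunit members 20 had one, with a median of -0.11 and a range from -0.30 to -0.0068. The difference between the subunits was not tested. The 5 paralogs tested ran from -0.90 for RPL22L1 to 0.28 for RPS27L and so held both the lowest and the highest value of all 56 members.

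**Figure D2:**
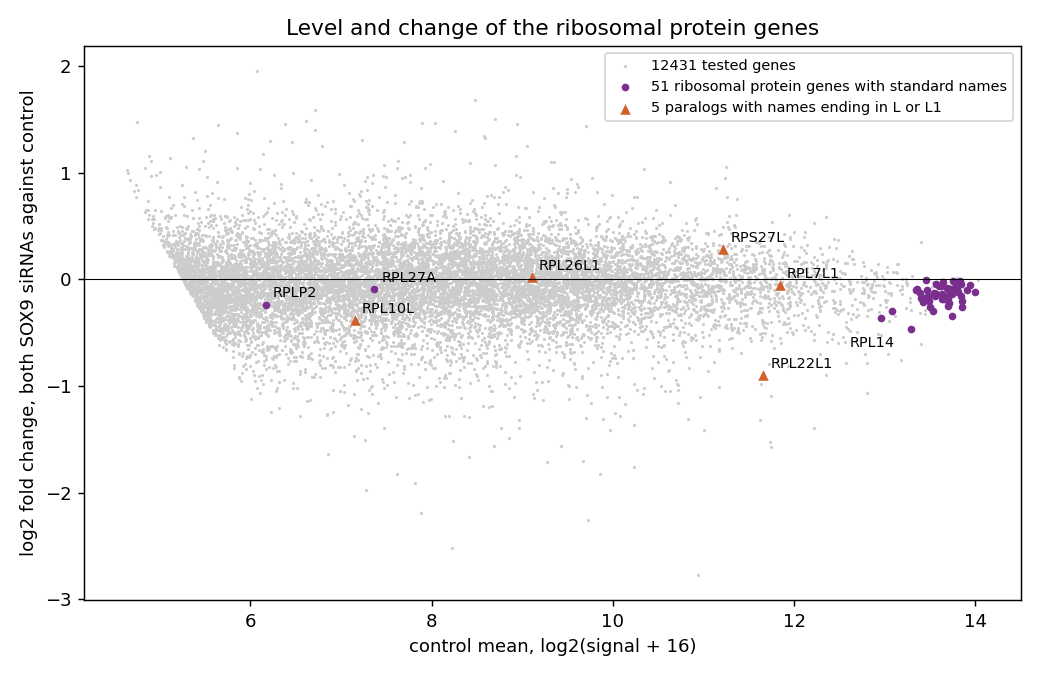
Control level, as the mean log2(signal + 16) of both control arrays, on the x axis and log2 fold change for both SOX9 siRNAs against control on the y axis; grey points are the 12431 tested genes, purple points the 51 ribosomal protein genes with standard names and triangles the 5 paralogs. Most members form a tight group at the bright end just below 0, while RPL22L1 at -0.90 and RPS27L at 0.28 stand outside it.

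RPL22L1, the paralog of the RNA-binding large subunit protein RPL22, had the lowest log2 fold change of the members. Its signals were 3048 and 3412 in the control arrays, 2634 and 1843 with siRNA A and 1816 and 992 with siRNA B. Every SOX9 siRNA array lay below both controls, and replicate 2 lay below replicate 1 within each siRNA. The log2 fold change was -0.90 (SE 0.25, limma adjusted p = 0.417) for both siRNAs and -1.25 (SE 0.29, limma adjusted p = 0.114) for siRNA B, neither past the test, and -0.55 for siRNA A. With the replicate block it passed for both siRNAs and for siRNA B, at limma adjusted p-values of 0.00177 and 3.99e-05. The blocked fit on the deposited signals, here and elsewhere, took each spread from the intensity trend alone. It assumes 1 replicate shift shared by all groups. For RPL22L1 replicate 2 minus replicate 1 was -0.51 with siRNA A, -0.86 with siRNA B and 0.16 in control on the log2 scale. The log2 fold change of RPL22L1 kept its sign under every alternative run here. Leaving out 1 array moved it over -1.12 to -0.68 for both siRNAs, -1.68 to -0.82 for siRNA B and -0.80 to -0.29 for siRNA A. RPL22 itself had signals of 11784 and 12322 in the control arrays, 11452 and 10418 with siRNA A and 10587 and 10721 with siRNA B, with all 4 below control and a log2 fold change of -0.16 (SE 0.12, limma adjusted p = 0.834). The 5 probe sets of RPL22, each with a mean signal above 4000, ran from -0.37 to -0.14 for both siRNAs.

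RPL14, a large subunit protein, had the smallest p between the siRNAs. Its signals were 9847 and 10182 in the control arrays, 9688 and 8698 with siRNA A and 7355 and 4500.1 with siRNA B. Both siRNA B arrays lay below all others, and both siRNA A arrays lay below control. Its log2 fold change was -0.46 (SE 0.18, limma adjusted p = 0.538) for both siRNAs, -0.13 for siRNA A and -0.80 (SE 0.20, limma adjusted p = 0.139) for siRNA B, and siRNA A minus siRNA B was 0.67 (SE 0.20, limma adjusted p = 0.276); none passed. With the replicate block it passed for siRNA B (limma adjusted p = 0.000446) and for siRNA A against siRNA B (limma adjusted p = 0.01). Its other bright probe set had -1.05 for siRNA B and the third, a dim one with a mean signal of 112, -0.83, so the 3 ran the same way. Leaving out 1 array at a time moved RPL14 over -1.15 to -0.44 for siRNA B and 0.32 to 1.03 between the siRNAs, with the weaker end in each case without replicate 2 of siRNA B.

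The other low members were RPL10L, RPL36, RPL35A and RPS28. RPL35A, mutated in some cases of Diamond-Blackfan anaemia, had signals of 13419 and 13887 in the control arrays, 12337 and 11349 with siRNA A and 10854 and 8894 with siRNA B, with all 4 SOX9 siRNA arrays below control and a log2 fold change of -0.34 (SE 0.13, limma adjusted p = 0.538) for both siRNAs; for siRNA B it was -0.47 (SE 0.15, limma adjusted p = 0.228), or an adjusted p of 0.0469 with the block. RPL36 had signals of 7861 and 8012 in the control arrays, 7785 and 6115 with siRNA A and 6137 and 4928 with siRNA B and a log2 fold change of -0.36 (SE 0.16, limma adjusted p = 0.622). On these deposited signals RPL36 too lay below control on every SOX9 siRNA array. RPS28, a small subunit protein near the mRNA exit, had 8638 and 8602 in the control arrays, 7467 and 6792 with siRNA A and 6785 and 6965 with siRNA B. In this bright probe set the groups had a gap and both siRNAs nearly equal values. The log2 fold change was -0.30 (SE 0.14, limma adjusted p = 0.641). Its dimmer probe sets did not have equal values: 208903_at had 0.076 for siRNA A and -0.60 for siRNA B, and 208902_s_at -0.024 and -0.75. RPL10L, a retrogene copy of RPL10 known from testis, was dim, with signals of 115 and 139 in the control arrays, 149 and 75.3 with siRNA A and 88.2 and 73.8 with siRNA B, of which siRNA A replicate 1 lay above both controls and the other 3 below. None of the 4 passed for both siRNAs, with or without the block.

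At the other end, RPS27L, a paralog of the small subunit protein RPS27 and a known p53 target, had signals of 1796 and 3125 in the control arrays, 2903 and 2760.5 with siRNA A and 2627 and 3308 with siRNA B. The control arrays themselves were the farthest apart, and the groups overlapped. The log2 fold change of 0.28 (SE 0.23, limma adjusted p = 0.846) turned to -0.11 without control replicate 1. The dimmer probe sets 238935_at and 222487_s_at of RPS27L had 0.54 and -0.086 for both siRNAs. RPS27 had -0.093 (SE 0.12, limma adjusted p = 0.918). RPL26L1 had 0.022 and RPL7L1 -0.052, against -0.057 for RPL7, and RPS18, RPS10, RPS4X and RPL41 lay between -0.024 and -0.0068. These last 4 had positive values after quantile normalization and median centring, so they have no settled direction. Among the genes named for their role, RPL11, which binds MDM2, had signals of 10862 and 11988 in the control arrays, 11022 and 10099 with siRNA A and 10172 and 9696 with siRNA B and a log2 fold change of -0.16 (SE 0.13, limma adjusted p = 0.85), with overlapping groups. RPLP1, of the stalk that recruits elongation factors, had 13426 and 14212 in the control arrays, 13339 and 12964 with siRNA A and 12829.9 and 12901 with siRNA B and -0.087 (SE 0.12, limma adjusted p = 0.923), with a positive value after quantile normalization. RPLP2, its partner, had 40.3 and 76.00 in the control arrays, 46.4 and 37.4 with siRNA A and 59.8 and 39.00 with siRNA B, where control replicate 2 alone was high.

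**Figure D3:**
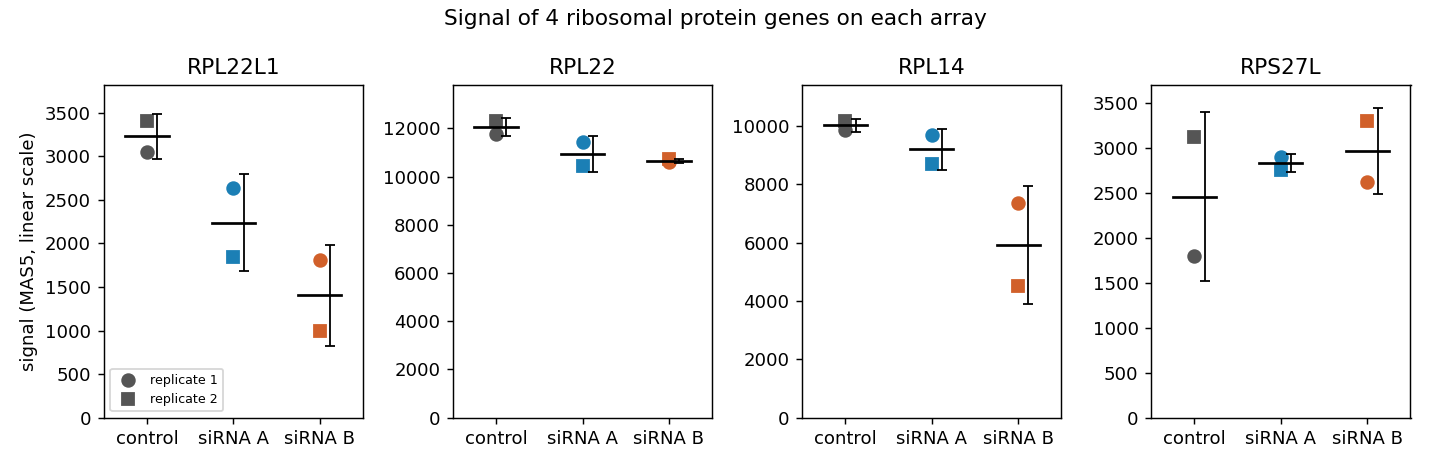
Signal on a linear scale of RPL22L1, RPL22, RPL14 and RPS27L in the control, siRNA A and siRNA B groups; circles are replicate 1, squares replicate 2, horizontal bars the mean and error bars the SD of 2 arrays. The mean of RPL22L1 is 3229.8 under control siRNA, 2239 under siRNA A and 1404 under siRNA B, while that of RPL14 is 10014, 9193 and 5927.

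The comparisons with each siRNA share the same control arrays, so their values stand side by side and are not independent. With siRNA A 54 of 56 members had a negative log2 fold change. So did 56.9% of all genes and 74.6% of all 653 probe sets with a mean signal of at least 4000. The member median was -0.10. On the deposited scale both siRNA A arrays lay below both controls in 31 members, where 23.8% of all genes did. This count was not repeated under the other scalings. Limma called 0 members, with 0.0161% of all genes, and 0 were lower at an unadjusted p below 0.05, with 3.65% of all genes. The median was -0.044 without replicate 2 of siRNA A and -0.0054 after quantile normalization. RPL22L1 (-0.55) and RPS28 (-0.28 in its bright probe set) had the smallest p-values.

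With siRNA B 50 of 56 members had a negative log2 fold change. So did 52.4% of all genes and 67.5% of all 653 probe sets with a mean signal of at least 4000. The member median was -0.16. On the deposited scale both siRNA B arrays lay below both controls in 44 members, where 26.3% of all genes did. This count was not repeated under the other scalings. At a common trimmed mean the member median of siRNA B replicate 1 was 0.076, above the 0.047 and -0.047 of the controls. After quantile normalization the median was -0.047 and 39 were negative, with 50.3% of all genes. Limma called 0 members, with 0.185% of all genes, and 7 were lower at an unadjusted p below 0.05, with 7.47% of all genes. With the replicate block 4 members were called, RPL22L1, RPL14, RPL35A and RPS15, with 5.89% of all genes. Without replicate 1 of siRNA B 5 were called, these and RPL36, with 7.97% of all genes, so the share of members, 8.93%, was near the background. RPS15, a small subunit protein, had signals of 11774 and 11961 in the control arrays, 11646 and 10919 with siRNA A and 9689 and 7076 with siRNA B, so that replicate 2 of siRNA B lay far below the rest, and a log2 fold change of -0.52 (SE 0.17, limma adjusted p = 0.234) for siRNA B (limma adjusted p = 0.0321 with the block). Leaving out 1 array moved it over -0.74 to -0.29. The median of the members minus that of all genes was -0.13 for siRNA B, -0.31 without its replicate 1 and 0.036 without its replicate 2, so the position of the members relative to other genes turned on which array was used.

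Between the siRNAs, 45 of 56 members were higher with siRNA A than with siRNA B, by a median of 0.052. Limma called 0, with 0.0965% of all genes, and 3 had an unadjusted p below 0.05, with 8.23% of all genes. The smallest p-values were those of RPL14, given above, and RPS15, whose log2 fold change was 0.44 (SE 0.17, limma adjusted p = 0.429). RPL14 was the 1 member called with the replicate block, with 2.9% of all genes. Dropping the first siRNA A array gave a member median of 0.0039, dropping the second 0.11.

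A gene can have several probe sets, and those of a member did not give 1 value. In a fit of all 27307 probe sets above the filter, 106 belonged to members. The 70 with a mean signal of at least 4000 had a median log2 fold change of -0.14 for both siRNAs, with 70 negative. All 653 probe sets of that brightness had -0.083, with 70.9% negative. The 26 between 100 and 4000 had -0.33, with 22 negative and a range from -1.47 to 0.54, where all 15173 such probe sets had -0.018. For siRNA B the medians of the members were -0.16 and -0.49. The level of 4000 was chosen after the values had been seen, and the difference was not tested. Limma called 0 member probe sets for both siRNAs, with 0.00366% of all, and 0 for siRNA B, with 0.0623%.

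RPL31 and RPL37, both large subunit proteins, had the widest gaps between probe sets. For RPL37 the bright probe set 200092_s_at had signals of 13950.4 and 14729 in the control arrays, 14259 and 13336 with siRNA A and 12698 and 12479 with siRNA B, a narrow range in which the groups overlapped. Probe set 224763_at, of the same gene, had 1999.6 and 2298 in the control arrays, 2042 and 833 with siRNA A and 852 and 229 with siRNA B. Replicate 2 of siRNA B was the lowest by far, replicate 2 of siRNA A and replicate 1 of siRNA B came next, and replicate 1 of siRNA A lay between the controls. The log2 fold change for both siRNAs was -0.12 (SE 0.11, limma adjusted p = 0.892) for the first and -1.47 (SE 0.42, limma adjusted p = 0.577) for the second. Probe set 224767_at had -1.36 and 224766_at -0.51. These genes and the next were singled out after their values had been seen.

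RPL31 had 14275 and 14154 in the control arrays, 14211 and 12983 with siRNA A and 13463 and 12810.5 with siRNA B in its bright probe set 200963_x_at and 1120.2 and 1019 in the control arrays, 813 and 304 with siRNA A and 537 and 147 with siRNA B in 200962_at. In the latter all SOX9 siRNA arrays lay below control and both replicates 2 lay far below, with a log2 fold change of -1.46 (SE 0.43, limma adjusted p = 0.581), against -0.090 in the bright one. For the small subunit gene RPS15A, 235309_at had 725 and 787 in the control arrays, 721 and 441 with siRNA A and 477 and 237 with siRNA B and a log2 fold change of -0.77 (SE 0.30, limma adjusted p = 0.654), against -0.10 in its bright probe set. For RPS29, 238824_at had 471 and 446 in the control arrays, 455 and 226 with siRNA A and 316 and 173 with siRNA B and -0.71 (SE 0.31, limma adjusted p = 0.706), against -0.19. In each of these, replicate 2 of siRNA B gave the lowest signal. The transcript parts that these dim probe sets match are not given in the tables used here.

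**Figure D4:**
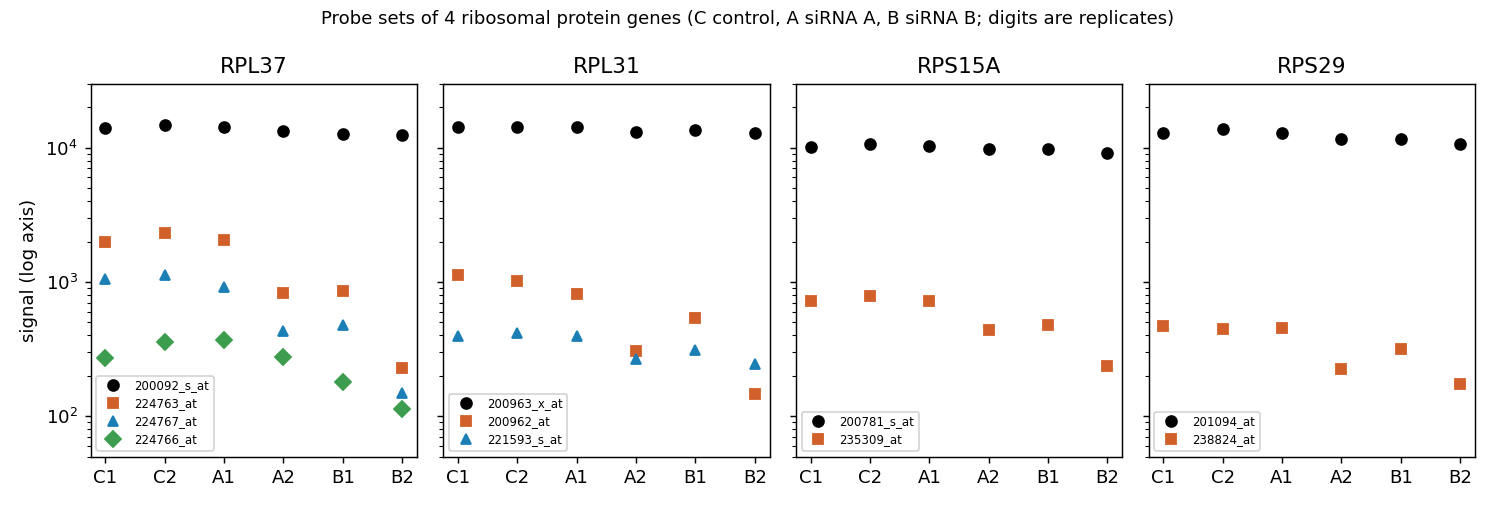
Signal on a log axis of every probe set with a mean signal of at least 100 for RPL37, RPL31, RPS15A and RPS29, on each of the 6 arrays (C control, A siRNA A, B siRNA B, with the replicate number). The brightest probe set of each gene is nearly level, while 224763_at of RPL37 goes from 2298 in control replicate 2 to 229 in siRNA B replicate 2.

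The pattern was not the same in every member. In the 13 genes that had both a probe set above 4000 and 18 between 100 and 4000, 13 of these dimmer ones had the lower log2 fold change, with medians of -0.18 for the bright and -0.42 for the dimmer ones. RPL37A, at 0.24 in 214041_x_at against -0.044, and RPS23, at -0.16 against -0.26, went the other way for both siRNAs, as did 1 each of RPL38, RPS24 and RPS28. Among the 15 genes with several probe sets above 4000, these differed by a median of 0.062 and at most by 0.23, in RPL22. Set against both controls, the median of the 26 dimmer member probe sets stood at -0.094 and 0.094 in control, -0.068 and -0.28 with siRNA A and -0.45 and -0.64 with siRNA B. With the replicate block 6 member probe sets were called for both siRNAs, with 3.01% of all: 200074_s_at of RPL14, the probe set of RPL22L1, 200962_at of RPL31, 224763_at and 224767_at of RPL37 and 235309_at of RPS15A. For siRNA B 12 were called, with 5.6% of all. This fit was added after the data had been seen.

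Genes that work with the ribosomal proteins were read from 5 lists. Other genes of the translation machinery, most of them known to carry a TOP start and including FAU, whose product holds a ribosomal protein, and the elongation factors EEF1A1 and EEF2, were the first, with 19 of 24 listed genes tested: for both siRNAs 18 of 19 tested genes had a negative log2 fold change, with a median of -0.22, and the median was -0.12 for siRNA A and -0.36 for siRNA B. It stayed between -0.20 and -0.18 for both siRNAs under the other scalings. The initiation factor genes EIF3F and EIF4B had -0.58 (SE 0.18, limma adjusted p = 0.459) and -0.59 (SE 0.22, limma adjusted p = 0.531). EIF4B had signals of 5097 and 5385 in control, 4729 and 3060.1 with siRNA A and 3960.1 and 2569.8 with siRNA B. With the replicate block these 2 passed (limma adjusted p = 0.0345 and 0.0443) and were the only ones of the list to do so for both siRNAs.

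Mitochondrial ribosomal proteins belong to the separate ribosome that translates mitochondrial mRNAs. For both siRNAs 36 of 75 tested genes had a negative log2 fold change, with a median of 0.0049, and the median was 0.060 for siRNA B, where the cytosolic members had -0.16. Its 2 genes of smallest p, MRPS25 and MRPL10, had -0.44 and -0.47. Of the ribosome biogenesis and RNA polymerase I genes, which make and assemble the subunits in the nucleolus, 30 of 46 had a negative value, with medians of -0.16 for both siRNAs, -0.060 for siRNA A and -0.26 for siRNA B. FBL, the rRNA methyltransferase fibrillarin, had -0.52 (SE 0.20, limma adjusted p = 0.538), with signals of 3166 and 3741 in the control arrays, 3116 and 2493 with siRNA A and 2134 and 1997 with siRNA B, so that every SOX9 siRNA array lay below control. NOLC1, a nucleolar phosphoprotein, had -0.48 and all 4 below control too.

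In the list of mTOR and TOP translation control 13 of 24 tested genes had a negative value, with a median of -0.056. MYC, which drives ribosomal protein transcription in many cells, had signals of 6618 and 7730.1 in the control arrays, 6146 and 5195 with siRNA A and 4799.7 and 1933 with siRNA B, lowest in replicate 2 of siRNA B, the array with the smallest share of ribosomal protein signal; the part of MYC in the members' values was not tested. Its log2 fold change was -0.78 (SE 0.26, limma adjusted p = 0.47; 0.000804 with the block). RPS6KB2, an S6 kinase, had 0.53 (limma adjusted p = 0.688). Of 13 p53 targets 8 had a positive value, with a median of 0.075, and ZMAT3 and GDF15 had 0.68 and -1.05, with limma adjusted p-values of 0.628 and 0.688, or 0.0986 and 0.00113 with the block. Without the block 0 genes of the 5 lists were called for both siRNAs, with 6, 0, 4, 1 and 1 at an unadjusted p below 0.05 in the order given, of 19, 75, 46, 24 and 13 tested, where 7.76% of all genes were. No list was compared with another by a test.

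**Figure D5:**
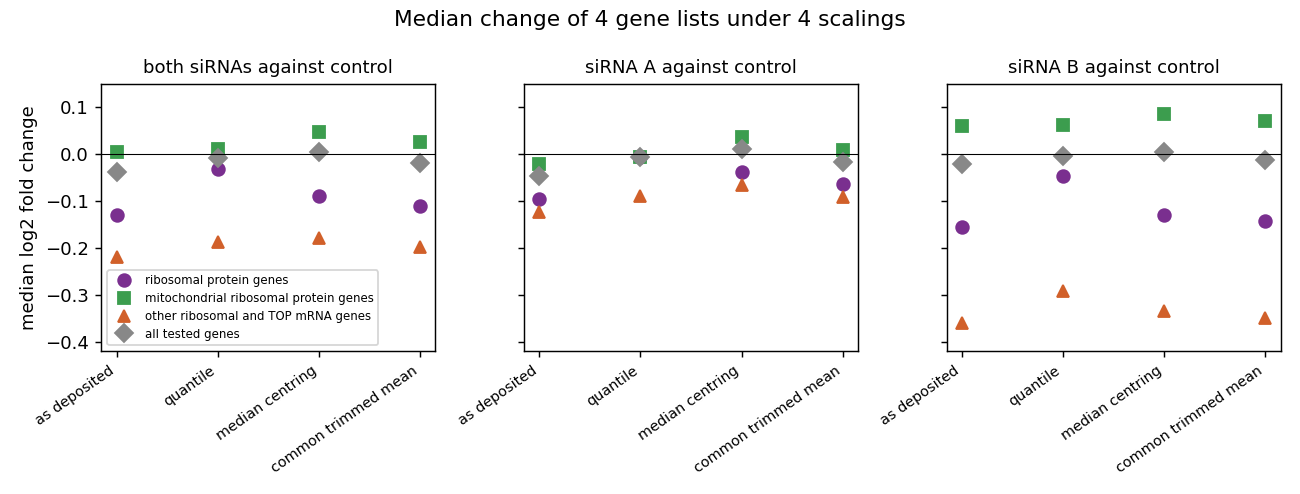
Median log2 fold change of 4 gene lists for both siRNAs, siRNA A and siRNA B against control, with the signals as deposited, after quantile normalization, after median centring and at a common trimmed mean. For both siRNAs the ribosomal protein genes go from -0.13 as deposited to -0.032 after quantile normalization, while the other ribosomal and TOP mRNA genes go from -0.22 to -0.19.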

How the data were processed

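RNA of VCaP cells was hybridised as biotin-labelled cRNA, made from 6 ug of total RNA per sample. The deposited values are linear array intensity, made with MAS5 per the submitters' processing notes, which name no version and no target value. They were analysed as log2(signal + 16), on the authors' scale. The 62 control probe sets were left out. Of the others, 41091 had 1 gene symbol, 1801 several and 11721 none in the annotation table; all 59 members matched the RefSeq gene table by identifier, with 0 symbols to update. Genes were tested with limma 3.58.1 (R 4.3.3): lmFit on the 3 groups over all 6 arrays, 3 residual degrees of freedom, eBayes with intensity trend, two-sided, Benjamini-Hochberg adjustment over 12431 genes, or 27307 probe sets. The pipeline was tested on simulated data. P-values measure the spread between arrays called biological duplicates, and 2 arrays a group limit every precision.

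The members and lists were chosen with earlier results of these data known. Named members were the 6 brightest and 4 dimmest tested, the 6 lowest and 6 highest for both siRNAs, the 2 of smallest p per comparison, RPLP1 and RPLP2, paralogs with their parents, RPL11 and RPS6, and of each related list the 2 of smallest p. Deviations of same-numbered arrays correlated at 0.63 between the siRNAs and at 0.18 between each siRNA and control, so the replicate numbers, whose meaning the labels do not state, were taken to pair the arrays. The fit without the block stayed the main one. In the blocked fit on the deposited signals limma took each spread from the intensity trend alone. Alternatives varied the log offset, scaling, filter, probe set choice, eBayes settings, arrays, replicate block and threshold. Protein sequences were not used here.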

Additional observations from a re-analysis of the deposited data

Results flagged for a closer look

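RPS18, a small subunit protein, was lower than both controls in both siRNA A arrays and higher than both in both siRNA B arrays, with signals of 11321 and 11183 in the control arrays, 10858 and 11083 with siRNA A and 11459 and 11406 with siRNA B. The difference, siRNA A minus siRNA B, was -0.060 on the log2 scale, which missed the threshold (adjusted p = 0.976 in limma). RPS18 was singled out because the 2 siRNAs lay on opposite sides of control in the deposited signals. The trimmed mean signal of these arrays ran from 144 to 190.0, and the pattern is not given here under the other scalings. How many of all genes have such a pattern is not given either.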

How the results depend on the processing

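With 2 arrays a group and signals near the top of the array's range for most members, small differences could not be told from the spread between arrays, and the cause of the shifts below was not tested. Comparisons are given in the order both siRNAs, siRNA A and siRNA B against control, then siRNA A against siRNA B. After quantile normalization the members with a negative value were 35, 33 and, between the siRNAs, 17, and the medians against control -0.032, -0.0054 and -0.047; of the members named in the text, these turned positive for both siRNAs: RPL37A 0.036, RPL41 0.076, RPL7 0.0011, RPLP1 0.013, RPS10 0.065, RPS16 0.033, RPS18 0.093, RPS27 0.0019, RPS4X 0.080. Median centring gave a median of -0.039 for siRNA A, with or without the replicate block, and turned RPL41 0.017, RPS10 0.025, RPS18 0.035, RPS4X 0.022, also with the block. A common trimmed mean turned RPS10 0.0045, RPS18 0.014, RPS4X 0.0012. With only unique-type probe sets 27 members were tested. Their medians were -0.21, -0.28 and 0.13 for both siRNAs, siRNA B and the siRNAs compared, with 3 of the 27 negative in the last. RPL7 was at 0.20 for both siRNAs, a value that came from a dim probe set in place of its bright one. The median over probe sets turned RPL37A 0.10, RPS27 0.10.

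With the replicate block the members called were 1, 0, 4 and 1 (all genes 3.54%, 1.8%, 5.89% and 2.9%), with median centring added 1, 0, 5 and 3 (all genes 4.42%, 1.62%, 8.53% and 4.73%), and over probe sets, a fit chosen after seeing the data, 6, 1, 12 and 5 (all probe sets 3.01%, 1.3%, 5.6% and 2.6%). The pairing by replicate number changed no other call among the members. The stricter filter called 2 for siRNA B, RPL14 and RPL22L1, with 0.775% of all genes. Without replicate 1 of both siRNAs 8, 1, 7 and 3 were called, each a smaller share than over all genes (21.4%, 11.2%, 25.3% and 9.34%), 17 were negative between the siRNAs, the median minus that of all genes was -0.31 for siRNA B and 0.27 between the siRNAs, and RPL7L1 was at 0.040. Without replicate 2 of both, the median was -0.044 for siRNA A, the median minus that of all genes 0.036 for siRNA B, and RPL26L1 at -0.15.

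Leaving out 1 array at a time, where a lone array is assumed to vary like the others, the calls ran from 0 to 1 for both siRNAs, 0 to 5 for siRNA B and 0 to 3 between the siRNAs, in each case with calls made without replicate 1 of siRNA B, where 0.499%, 7.97% and 2.32% of all genes were called. The medians ran from -0.15 to -0.044 for siRNA A, -0.21 to -0.12 for siRNA B and 0.0039 to 0.11 between them, with 10 to 28 negative. The median minus that of all genes ran from -0.18 to -0.0078 for both siRNAs, -0.31 to 0.036 for siRNA B and -0.085 to 0.27 between the siRNAs. Of the members named in the text, those whose sign turned ran from -0.16 to 0.21 in RPL26L1, -0.20 to 0.021 in RPL27A, -0.17 to 0.065 in RPL7L1, -0.59 to 0.12 in RPLP2, -0.044 to 0.011 in RPS10, -0.016 to 0.0021 in RPS18, -0.11 to 0.68 in RPS27L and -0.057 to 0.017 in RPS4X. Over all values computed for these summaries, 332 kept their direction and size, 22 moved, 3 reversed and 19 gained calls. Of the values of single named members 677 kept direction and side of the threshold, 40 came to pass it and 37 reversed. Some values were fixed in advance. Fold changes and their medians cannot change with the eBayes settings, the replicate block or the siRNA arrays taken as 1 group. The counts of kept values are therefore no measure of robustness. The calls include fits that left a group with 1 array.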
